A study of Mus musculus with 24 samples.

Results

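The genes described here set the electrical behaviour of the muscle cell membrane, the sarcolemma, and restore its ion gradients after each action potential. They are Scn4a, Clcn1, Kcnj2, Atp1b1, Fxyd1, and Fxyd5, 6 of the 56941 genes listed in the deposited tables, and they were found there by gene symbol. All 6 were listed once, and 5 of them passed the filter on low counts that left 13315 genes for testing. Clcn1 was the member that did not pass.

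RNA came from C2C12 cells, a line of mouse myoblasts that form twitching multinucleated myotubes, here carrying ChR2::tdTomato, a light-gated cation channel joined to a red fluorescent protein. All tissues carried this channel and were differentiated on fibrin gels in medium with inactivated horse serum and IGF-1. Tissues were left unstimulated (Control) or exercised with blue light every day for 60 min at 1, 4, or 10 Hz, with 6 biological replicates per condition and 24 libraries in all. The controls were not at rest, since these tissues also contract spontaneously in culture. The model is 1 cell line without nerve or blood supply.

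A muscle action potential begins when voltage-gated sodium channels open. The fiber repolarizes as potassium leaves and chloride enters, and the chloride conductance keeps the membrane from firing again. The sodium pump then exports sodium and imports potassium, and its rate is tuned by small membrane proteins of the FXYD family. Loss or gain of function in several of these channels causes myotonia or periodic paralysis in mice and people.

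Each library held 8052369 to 18159144 estimated counts, and 4 libraries had a TMM library-size factor under 0.95 (1 Hz replicates 4 and 6, 4 Hz replicates 3 and 4). The defining genes of the labelled tissue were present. All 20 myotube markers were tested, and their summed level ran from 20070 to 24950 TPM in controls and, with rising frequency, from 14880 to 22950, 18270 to 22420, and 18340 to 21210. Of the 6 fat cell markers none passed the filter on low counts. Of 8 endothelial or blood cell markers 2 did, Cd68 (84.6 TPM in controls) and the hemoglobin gene Hba-a1 (4.94 TPM). The hemoglobin gene Hbb-bs was at 0 in every library. Hba-a1 was higher at 4 Hz (log2 fold change 0.899, adjusted p = 0.016, edgeR), and Cd68 was not called at any frequency against the control. This list summed to 79.9 to 106.1 TPM in controls and, with rising frequency, 62.6 to 93.1, 59.4 to 100.8, and 65.8 to 84.0 TPM. Of the 8 neuron or Schwann cell markers 3 were tested, and the list summed to 60.4 to 86.8 TPM in controls and, with rising frequency, 23.4 to 45.2, 23.4 to 43.9, and 66.7 to 99.2 TPM. Most of that sum was Tubb3 (68.8 TPM in controls), which was the marker of this list lower at 1 and 4 Hz. The markers of undifferentiated myogenic cells (9 of 10 tested) summed to 676.7 to 759.3 TPM in controls and to 560.8 to 725.4, 529.5 to 713.5, and 730.3 to 765.2 TPM, with 3 higher and 3 lower at 1 Hz and 5 and 3 at 4 Hz. Cycling cell markers (10 of 10) summed to 25.2 to 42.3, 26.2 to 54.6, 20.8 to 33.2, and 34.8 to 49.0 TPM from control to 10 Hz, with 1 higher at 1 Hz and 1 higher and 4 lower at 4 Hz. Fibroblast-type markers (8 of 10) summed to 503.6 to 800.3, 378 to 765.3, 436.8 to 694.7, and 618.2 to 765.1 TPM, with 2 higher and 2 lower at each of 1 and 4 Hz. At 10 Hz edgeR called 0 markers of these 4 lists against the control, with 1 undifferentiated and 1 neuron or Schwann cell marker under 0.05 without adjustment. Of the 20 myotube markers 1 was called at 10 Hz, Myh2, which was lower (log2 fold change -1.07, adjusted p = 0.038, edgeR). In that list 7 were under 0.05 without adjustment at 10 Hz. At 1 Hz 1 myotube marker was called, Myog, also lower (-1.34, adjusted p = 1.2e-12). For these counts, 19.2% of all genes tested were higher and 18.1% lower at 1 Hz, and 27.5% and 23.9% at 4 Hz. The part of these lists in the results was not tested. In bulk RNA, fewer cells of a type and less RNA per cell cannot be told apart.

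Levels of different genes were compared in TPM (transcripts per 1000000, which divides by transcript length). In controls the order was Fxyd5 at 185 ± 14.9 TPM, Atp1b1 at 54.6 ± 3.38, Fxyd1 at 42.6 ± 8.87, Scn4a at 8.66 ± 0.549, Kcnj2 at 0.819 ± 0.153, and Clcn1 at 0.0853 ± 0.0421 (mean ± SD, n = 6 each). The libraries of Atp1b1 (50.8 to 59.6 TPM) and Fxyd1 (34.3 to 59.3 TPM) overlapped in controls, and the other neighbours in that order did not. The order of the means was the same at 1, 4, and 10 Hz. At 10 Hz, Atp1b1 (41.0 to 46.8 TPM) and Fxyd1 (28.8 to 35.8 TPM) no longer overlapped.

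The 6 genes are spread over 4 chromosomes of GRCm39, the build named in the study's methods (the labels list other builds as well), with positions taken here from GENCODE M39. Scn4a lies on the minus strand of chromosome 11 (106208370 to 106256385) and Kcnj2 on the plus strand of the same chromosome (110956981 to 110967665). Clcn1 is on chromosome 6 (42263595 to 42292718, plus strand) and Atp1b1 on chromosome 1 (164264678 to 164285957, minus strand). Fxyd5 (30732147 to 30741906) and Fxyd1 (30751092 to 30756677) are close neighbours on the minus strand of chromosome 7, 9185 bases apart with 1 other gene, Fxyd7, between them. Exons of Scn4a, Clcn1, and Atp1b1 share 85, 473, and 877 bases with genes on the opposite strand, Kcnj2 shares 4, and Fxyd1 and Fxyd5 share none. How counting used the strand is not stated, so reads from those overlaps cannot be assigned to one gene with certainty.

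Promoters are shown for 3 members, namely Kcnj2 and Fxyd5, which passed the test at both 1 and 4 Hz, and Clcn1, which was hardly detected. They are RefSeq sequences of build GRCm38.p6, 250 bases before to 50 after the annotated gene start, 5′ to 3′ on the strand of the gene. Capitals mark each E-box and each MEF2-type match. An E-box here is any match to CANNTG, a loose pattern that includes the sites bound by myogenic bHLH factors. A MEF2-type match is CTA and TAG with any 4 bases between them, a loose pattern for the site bound by MEF2 factors. Kcnj2 is at chr11:111065914-111066213 (plus strand), Fxyd5 at chr7:31042282-31042581 (minus strand), and Clcn1 at chr6:42286435-42286734 (plus strand).
Kcnj2: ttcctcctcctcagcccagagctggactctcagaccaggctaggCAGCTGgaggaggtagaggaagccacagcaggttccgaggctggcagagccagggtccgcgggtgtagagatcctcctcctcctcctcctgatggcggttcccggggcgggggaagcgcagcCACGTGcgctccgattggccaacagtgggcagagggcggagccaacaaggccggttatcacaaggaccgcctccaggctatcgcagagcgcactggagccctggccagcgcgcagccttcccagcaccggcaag
Fxyd5: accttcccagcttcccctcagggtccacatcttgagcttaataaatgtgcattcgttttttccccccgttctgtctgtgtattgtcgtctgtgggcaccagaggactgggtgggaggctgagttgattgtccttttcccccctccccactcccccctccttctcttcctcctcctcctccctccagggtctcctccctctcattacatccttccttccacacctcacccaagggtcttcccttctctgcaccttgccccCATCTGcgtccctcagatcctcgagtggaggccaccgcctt
Clcn1: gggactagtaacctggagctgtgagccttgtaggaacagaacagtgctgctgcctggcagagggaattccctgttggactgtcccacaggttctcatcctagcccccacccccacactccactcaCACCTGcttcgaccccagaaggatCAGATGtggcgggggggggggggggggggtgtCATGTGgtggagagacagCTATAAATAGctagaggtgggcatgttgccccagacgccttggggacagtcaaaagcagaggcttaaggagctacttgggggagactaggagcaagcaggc
The Kcnj2 window held 2 E-boxes, starting at -206 and -84 from the gene start. Fxyd5 held 1, at position 10 after the start, and 2 matches to GGAAA, the core bound by NFAT factors, both on the opposite strand. Clcn1 held 3 E-boxes and 1 MEF2-type match, at -51. Over 32841 mouse promoters of the same length, 72.3% held an E-box, 3.69% a MEF2-type match, 61.4% a GGAAA, and 1.79% the cAMP response element TGACGTCA, all counted on both strands. None of these 4 motifs was found in the same windows of Scn4a, Atp1b1, or Fxyd1, and no member held TGACGTCA. These matches are letters in a window and were not measured as binding sites, and the start used in these cells was not measured either.

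Daily exercise at 1 Hz was compared with the control to ask which members differed at the lowest frequency. Kcnj2 and Fxyd5 were higher, and no member was lower. Counts per 1000000 after TMM scaling (CPM) are given for these comparisons within a gene. In edgeR, with p-values adjusted by the Benjamini-Hochberg method over all genes tested, 2 of the 5 tested members were higher, against 19.2% of all genes tested that were higher and 18.1% that were lower. The median log2 fold change was 0.20 for the members and 0.04 for all genes tested.

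Kcnj2 encodes Kir2.1, the inward rectifier potassium channel that holds the resting potential. Its level in controls ran from 2.04 CPM through a median of 2.90 to 3.67, and at 1 Hz from 4.11 through 5.43 to 5.85. Each of the 6 libraries at 1 Hz was above every control, which held for 5.55% of all genes tested. The increase was 1.79-fold (log2 fold change 0.84 ± 0.18 SE, adjusted p = 0.00067, edgeR). The gene rests on 18 to 87 estimated counts per library, so single libraries carry more counting error than those of the other tested members.

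Fxyd5 encodes dysadherin, an FXYD protein that modulates the sodium pump and cell adhesion. Its level ran from 50.3 CPM through 55.3 to 60.6 in controls and from 63.3 through 71.4 to 79.1 at 1 Hz. Again no library overlapped with a control. The increase was 1.28-fold (log2 fold change 0.36 ± 0.08 SE, adjusted p = 0.0011).

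The other 3 tested members did not pass the test at 1 Hz. Scn4a, the sodium channel of adult skeletal muscle, had a log2 fold change of 0.13 ± 0.12 (adjusted p = 0.39). Atp1b1, which encodes the beta 1 subunit needed to fold the sodium pump and carry it to the membrane, had 0.07 ± 0.12 (adjusted p = 0.68). Fxyd1 encodes phospholemman, the pump regulator of heart and skeletal muscle that is phosphorylated by protein kinases A and C, and it had 0.20 ± 0.16 (adjusted p = 0.35). Atp1b1 and Fxyd1 were highest in 1 Hz replicates 4 and 6, at 108 and 100.4 CPM and at 15.6 and 12.9 CPM. Without the 4 libraries with a low TMM factor, their log2 fold changes turned to -0.17 and -0.084.

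**Figure D1:**
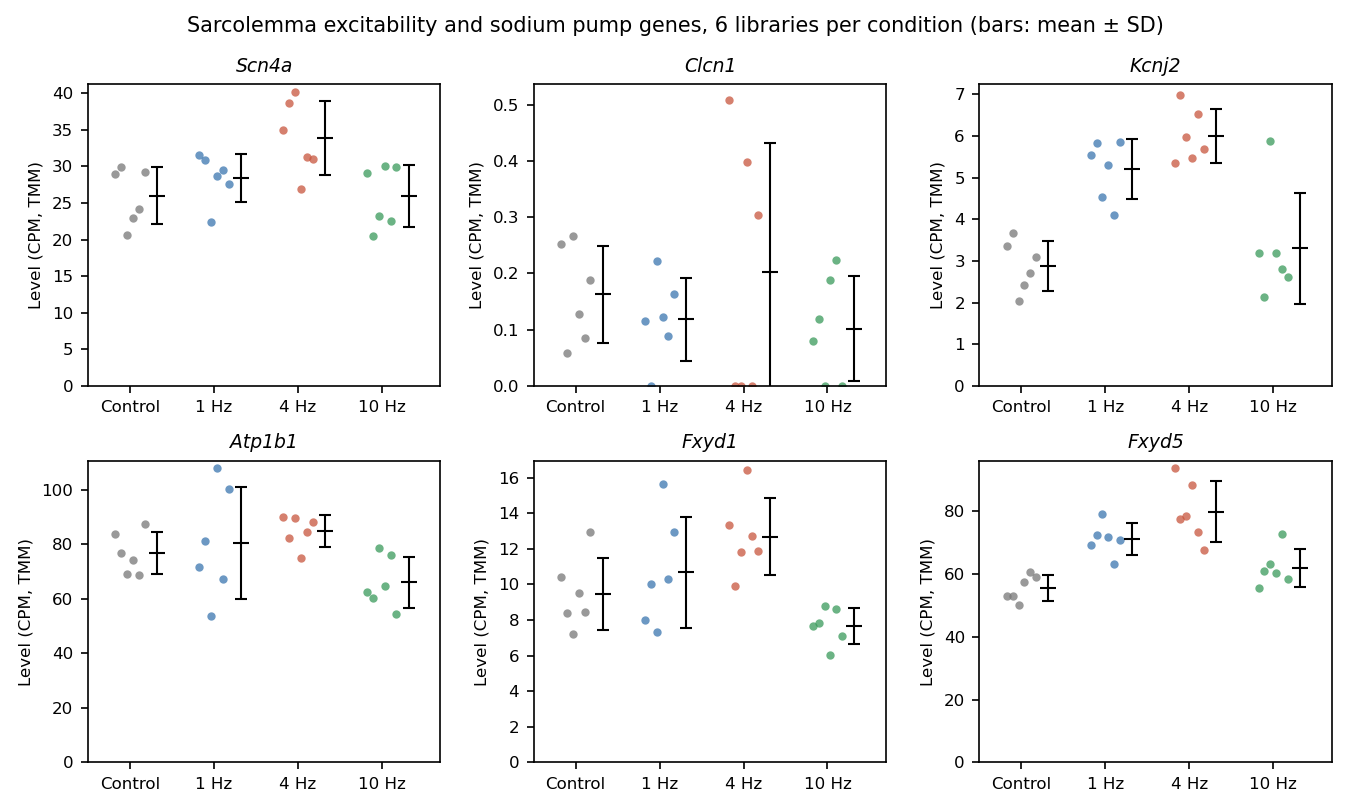
Level of each member in CPM (vertical axis, starting at 0) in the 6 libraries of each condition, with points for libraries and bars for the mean ± SD. Kcnj2 and Fxyd5 sit above every control at 1 and 4 Hz, the 10 Hz libraries of Fxyd1 all lie below those at 4 Hz, and Clcn1 never exceeds 0.509 CPM.

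At 4 Hz the same question gave more members. In CPM, Scn4a, Kcnj2, Fxyd1, and Fxyd5 were higher than in controls, 4 of the 5 tested, and none was lower, while on TPM the sign of Scn4a turned. Of all genes tested, 27.5% were higher and 23.9% were lower. The median log2 fold change was 0.42 for the members and 0.06 for all genes tested.

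Kcnj2 had the largest change of the tested members. At 4 Hz its level ran from 5.34 CPM through 5.84 to 6.99, and all 6 libraries were above every control, as in 12.9% of all genes tested. The level was 2.07-fold that of controls (log2 fold change 1.05 ± 0.18 SE, adjusted p = 3.5e-05). It was the member whose call at 4 Hz held under each of 36 alternative settings, with adjusted p between 4.4e-07 and 0.018.

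Fxyd5 ran from 67.8 CPM through 78.0 to 93.9 at 4 Hz, with no library as low as a control. It was 1.44-fold higher (log2 fold change 0.52 ± 0.08 SE, adjusted p = 8.4e-06). Scn4a ran from 20.6 CPM through 26.5 to 29.9 in controls and from 26.9 through 33.1 to 40.2 at 4 Hz, with 5 of 6 libraries above every control. Its increase was 1.30-fold in CPM (log2 fold change 0.38 ± 0.12 SE, adjusted p = 0.0091), while on the TPM scale the difference was -0.017 (adjusted p = 0.95).

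Fxyd1 overlapped with the controls. It ran from 7.20 CPM through 8.98 to 13 in controls and from 9.88 through 12.3 to 16.4 at 4 Hz, and 2 of 6 libraries were above every control. The increase was 1.34-fold (log2 fold change 0.42 ± 0.16 SE, adjusted p = 0.031). This call was lost in 12 of 36 settings, among them the one without 4 Hz replicate 4 (adjusted p = 0.13) and the one without the 4 libraries of low TMM factor (log2 fold change 0.31, adjusted p = 0.083). The call was also lost without control replicate 2, 3, 4, or 5 or 4 Hz replicate 1 or 5, with adjusted p between 0.053 and 0.091.

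Atp1b1 did not pass the test at 4 Hz. It ran from 68.8 CPM through 75.6 to 87.5 in controls and from 74.8 through 86.3 to 90.0 at 4 Hz. The log2 fold change was 0.15 ± 0.12 SE (adjusted p = 0.33). Of 20 myotube markers, 4 were higher at 4 Hz and 2 were lower, and their part in the changes of these members was not tested.

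The scale of the values mattered for these calls. On the deposited TPM, the median gene tested had a log2 fold change of -0.14 at 1 Hz and -0.21 at 4 Hz, against 0.04 and 0.06 in CPM, and of the genes called at 4 Hz 14% were higher on TPM against 53.6% in CPM. The TPM given per CPM, as a median over well expressed genes of a library, was 0.899 to 0.978 in controls and, with rising frequency, 0.655 to 0.95, 0.593 to 0.862, and 0.823 to 0.977. With limma on log2(TPM + 1), 0 members were called at 1 Hz and 1, Kcnj2, at 4 Hz (log2 fold change 0.38, adjusted p = 0.015). Without adjustment 1 member, Kcnj2, was under 0.05 at 1 Hz, and at 4 Hz there were 2, Kcnj2 and Fxyd5.

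Without that reference, 3 members changed direction on TPM. Scn4a was at -0.29 at 1 Hz, Atp1b1 at -0.14 at 1 Hz and -0.057 at 4 Hz, and Fxyd1 at -0.025 at 1 Hz, all without a call.

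Relative to the median gene the members kept their sign at 4 Hz on both scales. Kcnj2 was 0.99 above the median in CPM and 0.59 above it on log2(TPM + 1). Fxyd5 was 0.46 and 0.42 above, and Fxyd1 was 0.36 and 0.30 above. Scn4a was 0.32 and 0.19 above, and Atp1b1 was 0.085 and 0.15 above. At 1 Hz, Scn4a stood 0.091 above the median in CPM and 0.14 below it on TPM, so its direction there depended on the scale. The TPM given per CPM for Scn4a alone varied from 0.174 to 0.459 between libraries. In controls Scn4a was at 8.66 ± 0.549 TPM and 26.0 ± 3.89 CPM (mean ± SD). At 10 Hz it was at 8.09 ± 3.15 TPM and 25.9 ± 4.26 CPM. Relative to the mean, its spread was smaller on TPM in controls and larger on TPM at 10 Hz. Which scale lies closer to its level was not tested.

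**Figure D2:**
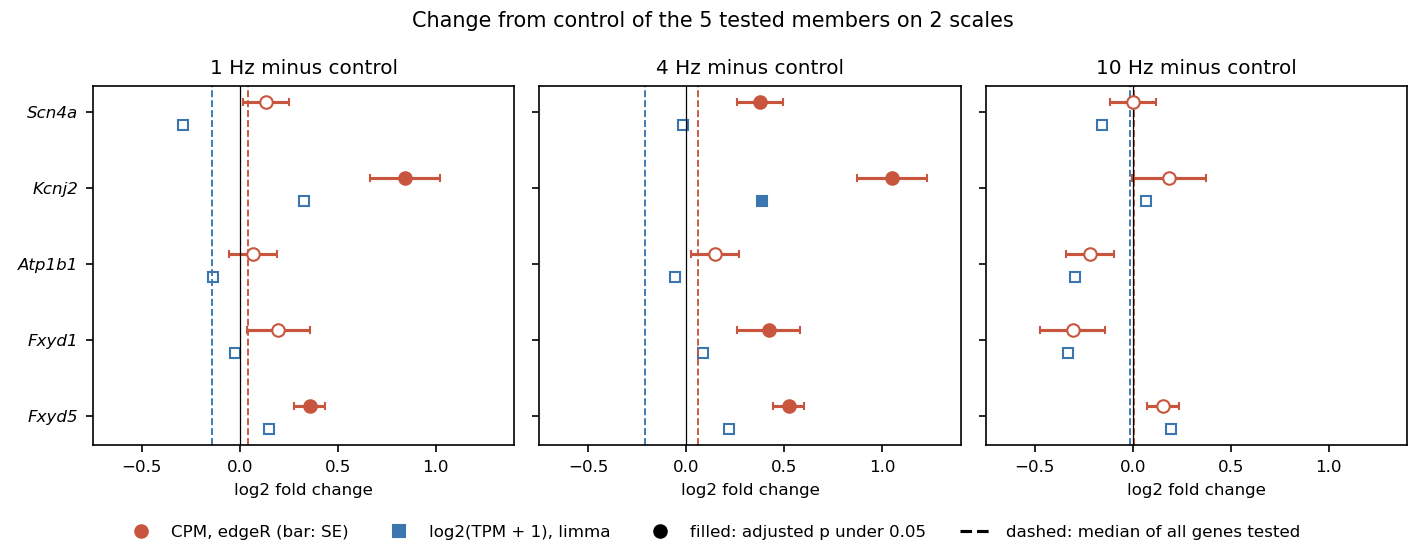
Log2 fold change from control (horizontal axis) of the 5 tested members at each frequency, in CPM with its SE (circles) and on log2(TPM + 1) (squares), filled where the adjusted p was under 0.05. Dashed lines mark the median of all genes tested, which lies at -0.21 on TPM and 0.06 in CPM at 4 Hz, and Kcnj2 at 4 Hz is the member filled on both scales.

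At 10 Hz no tested member differed from the controls in edgeR. None had an unadjusted p under 0.05 either, and DESeq2 and limma on TPM also called 0. On TPM 3 were under 0.05 without adjustment, namely Atp1b1 (log2 fold change -0.29), Fxyd1 (-0.33), and Fxyd5 (0.20). Across all genes, 0.0376% were called in either direction. Log2 fold changes were 0.00 ± 0.12 for Scn4a, 0.19 ± 0.19 for Kcnj2, -0.22 ± 0.12 for Atp1b1, -0.31 ± 0.17 for Fxyd1, and 0.16 ± 0.08 for Fxyd5, with adjusted p between 0.65 and 1. These p-values do not show that the levels were equal. Kcnj2 at 10 Hz ran from 2.14 CPM through 2.99 to 5.89, and the highest value came from replicate 3, without which the log2 fold change was -0.044.

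The frequencies were then compared with each other in the same fit. In CPM all 5 tested members were lower at 10 Hz than at 4 Hz, where 24.4% of all genes tested were lower, while on log2(TPM + 1) 2 of the 5 were called, Kcnj2 and Fxyd1. Kcnj2 was lower by the most (log2 fold change -0.86 ± 0.18 SE, adjusted p = 5e-04). Fxyd1 followed (-0.73 ± 0.17, adjusted p = 0.0011), and its 10 Hz libraries, from 6.02 CPM through 7.74 to 8.78, were all below those at 4 Hz, as in 8.10% of all genes tested. Fxyd1 kept this call in all 36 settings.

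The remaining 3 members had similar log2 fold changes in CPM between 10 and 4 Hz. Scn4a ran from 20.6 CPM through 26.2 to 30.0 at 10 Hz, and its log2 fold change was -0.38 ± 0.12 (adjusted p = 0.011). Atp1b1 ran from 54.3 CPM through 63.5 to 78.6, with -0.36 ± 0.12 (adjusted p = 0.018), and it was the comparison in which Atp1b1 passed the test. Fxyd5 ran from 55.7 CPM through 60.7 to 72.8, with -0.37 ± 0.08 (adjusted p = 0.00069). On log2(TPM + 1) in limma none of these 3 calls was made, with Scn4a at -0.14 (adjusted p = 0.59), Atp1b1 at -0.24 (adjusted p = 0.16), and Fxyd5 at -0.020 (adjusted p = 0.89). Without 10 Hz replicate 2, the calls of Scn4a (adjusted p = 0.05) and Atp1b1 (adjusted p = 0.053) were lost and 3 members were left. The call of Scn4a was also lost without 4 Hz replicate 3 (adjusted p = 0.051), and that of Atp1b1 without 10 Hz replicate 6 (adjusted p = 0.066). Of 20 myotube markers, 14 were also lower at 10 Hz than at 4 Hz and 1 was higher, and their part in the result was not tested.

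Against 1 Hz, 2 members were lower at 10 Hz in CPM, while 13.1% of all genes tested were lower. These were Kcnj2 (log2 fold change -0.66 ± 0.18 SE, adjusted p = 0.0088) and Fxyd1 (-0.50 ± 0.17, adjusted p = 0.026). On log2(TPM + 1) neither was called, with Kcnj2 at -0.26 (adjusted p = 0.15) and Fxyd1 at -0.31 (adjusted p = 0.088). Without the 4 libraries of low TMM factor, Fxyd1 was at -0.23 (adjusted p = 0.3). Fxyd1 was not called without 1 Hz replicate 4 (adjusted p = 0.12) or 6 (adjusted p = 0.075), or without 10 Hz replicate 4 (adjusted p = 0.066) or 6 (adjusted p = 0.057). Without 1 Hz replicate 5, 4 members were called. Scn4a (-0.13, adjusted p = 0.42), Atp1b1 (-0.29, adjusted p = 0.081), and Fxyd5 (-0.20, adjusted p = 0.059) did not pass, and on TPM Scn4a (0.13) and Fxyd5 (0.048) were on the other side of 0.

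Between 4 and 1 Hz no member was called, nor was any gene tested (0%), although 2 members, Scn4a and Fxyd5, were under 0.05 without adjustment. Their log2 fold changes of 4 Hz over 1 Hz were 0.25 ± 0.12 and 0.17 ± 0.08, with an adjusted p of 0.44 each. DESeq2 also called 0 members. The comparisons that share a condition share its libraries.

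Clcn1 encodes ClC-1, the chloride channel that carries most of the resting conductance of adult muscle fibers, and it was close to absent from these libraries. It had 38 estimated counts over the 24 libraries, between 0 and 4 per library, and 6 libraries were at 0. Summed over a condition, controls had 12 counts, 1 Hz had 8, 4 Hz had 12, and 10 Hz had 6. That corresponds to 0.153 CPM in controls (95% Poisson interval 0.079 to 0.267), 0.118 at 1 Hz (0.0509 to 0.232), 0.211 at 4 Hz (0.109 to 0.369), and 0.0978 at 10 Hz (0.0359 to 0.213). The intervals overlap and cover counting error only. A library at 0 allows up to 3 counts, which is 0.254 to 0.418 CPM in those 6 libraries depending on their depth. Since Clcn1 did not pass the filter on low counts, a difference between conditions was not tested, and no fold change is given.

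The genes that work with the members were examined next, starting with the sodium pump. The pump pairs an alpha subunit, which moves the ions, with a beta subunit, and an FXYD protein may join them. Among beta subunits Atp1b3 led with 61.0% of the summed TPM in controls (SD 2.56, n = 6), before Atp1b1 with 35.3% (SD 2.03) and Atp1b2 with 3.60% (SD 0.822). Among FXYD genes Fxyd5 held 74.3% (SD 3.35), Fxyd1 17.1% (SD 3.05), and Fxyd6, another pump regulator, 8.39% (SD 0.681).

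Atp1b1 held its largest mean share at 4 Hz and its smallest at 10 Hz. Atp1b1 ran from 36.6% to 44.0% of the beta TPM at 4 Hz and from 27.8% to 33.3% at 10 Hz. For this subunit no library at 10 Hz reached the lowest at 4 Hz. Fxyd5 held 77.4% (SD 1.95) at 4 Hz and 79.8% (SD 1.87) at 10 Hz. These shares describe the libraries and were not tested.

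**Figure D3:**
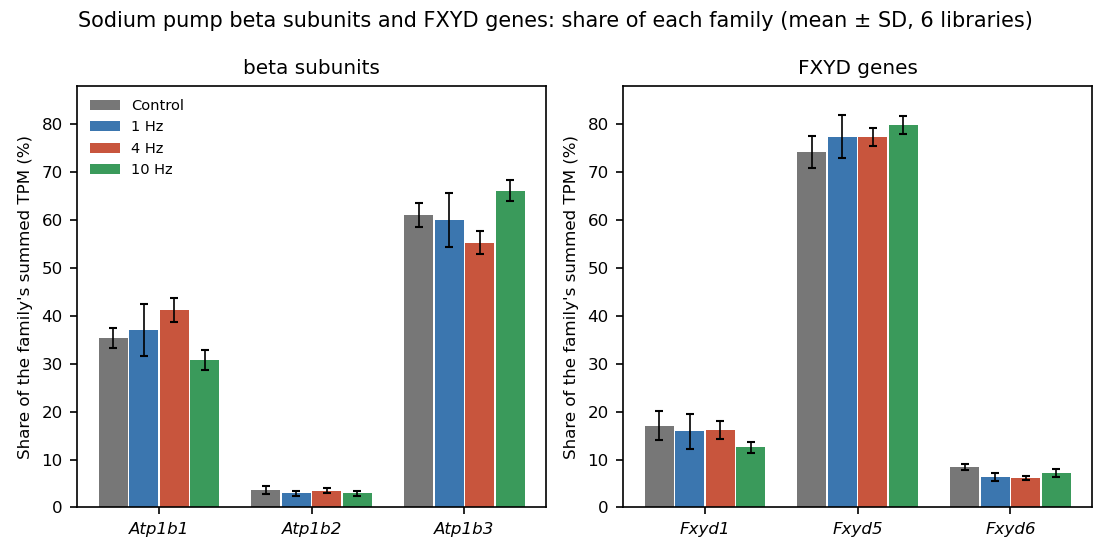
Share of each gene in the summed TPM of its family in percent (vertical axis from 0), for sodium pump beta subunits and FXYD genes, with bars for the mean of 6 libraries per condition and error bars for the SD. Atp1b1 takes 41.2% at 4 Hz and 30.9% at 10 Hz, and genes with smaller shares are not drawn.

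Tested gene by gene, Atp1b3, Atp1b2, and Fxyd6 did not pass at any frequency against the control, with log2 fold changes in CPM between -0.35 and 0.056. On TPM, Atp1b2 was lower at 1 Hz (-0.39, adjusted p = 0.048), Atp1b3 at 4 Hz (-0.42, adjusted p = 0.0014), and Fxyd6 at both (-0.30 and -0.27, adjusted p = 0.034 and 0.038).

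The list of inward rectifiers and the sulfonylurea receptors that join them had 5 tested genes besides Kcnj2. Of these 1 was lower at 1 Hz and 3 at 4 Hz, and none was higher, while 18.1% and 23.9% of all genes tested were lower. Kcnj12 encodes Kir2.2, a close relative of Kir2.1 that can join it in 1 channel. It ran from 2.68 CPM through 3.16 to 3.97 in controls, from 0.774 through 1.61 to 2.66 at 1 Hz, and from 1.67 through 2.13 to 2.34 at 4 Hz. All 12 libraries at 1 and 4 Hz were below every control, and the share of all genes tested for which this held was not counted. Kcnj12 rests on 7 to 68 estimated counts per library, so single libraries carry a large counting error. It fell by 0.87 ± 0.20 on the log2 scale under 1 Hz exercise (adjusted p = 0.0018) and by 0.66 ± 0.21 under 4 Hz (adjusted p = 0.0099), and both calls held under each of 35 settings. Kcnj14, which encodes Kir2.4, was lower at 4 Hz (-0.65 ± 0.26, adjusted p = 0.036), a call lost in 8 of 33 settings. The third gene at 4 Hz, named after its value was seen, was Abcc9 (-0.54, adjusted p = 0.0495), a sulfonylurea receptor that pairs with ATP-sensitive potassium channels.

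Per transcript length, the Kir2.2 gene was above the Kir2.1 gene in every control library, and the 2 genes overlapped at 4 Hz. In controls Kcnj12 stood at 2.25 ± 0.321 TPM and Kcnj2 at 0.819 ± 0.153. At 4 Hz they stood at 1.15 ± 0.188 and 1.38 ± 0.285 TPM, with ranges of 0.936 to 1.37 and 1.08 to 1.82 that overlap. At 10 Hz they were at 2.20 ± 0.459 and 0.921 ± 0.332 TPM.

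**Figure D4:**
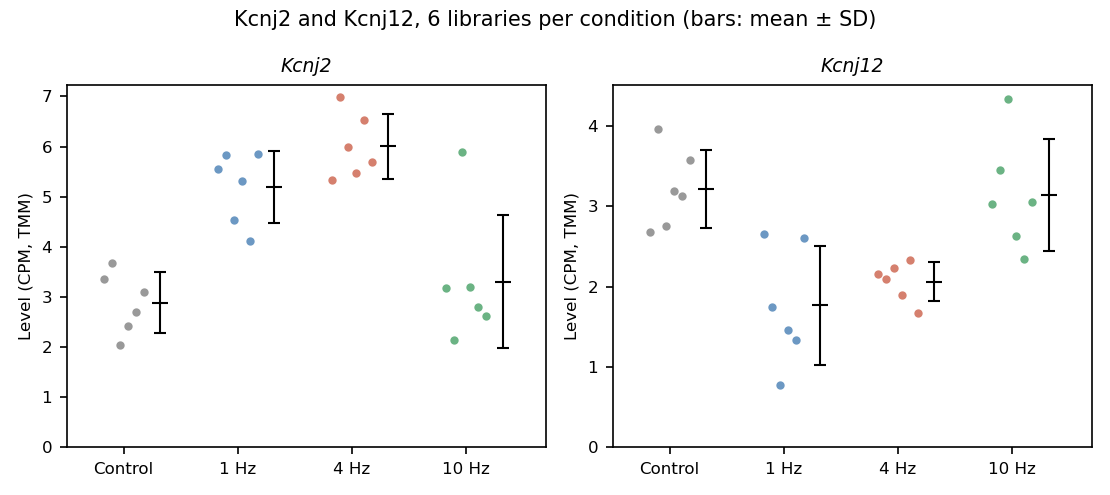
CPM (vertical axis from 0) of Kcnj2 and Kcnj12 in the 6 libraries of each condition, with points for libraries and bars for the mean ± SD. At 1 and 4 Hz Kcnj2 lies above and Kcnj12 below every control.

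Other genes of the pathway were taken from 6 lists, of which 69 were listed besides the members and 36 were tested. At 1 Hz 9 of the 36 were called, 3 higher and 6 lower, and at 4 Hz 14, 6 higher and 8 lower. Over all genes tested, 19.2% were higher and 18.1% lower at 1 Hz, and 27.5% and 23.9% at 4 Hz. On log2(TPM + 1) the split was 0 higher and 9 lower at 1 Hz and 1 higher and 10 lower at 4 Hz, on a scale where 14.1% and 14% of the genes called among all tested were higher. At 10 Hz edgeR and DESeq2 called 0, and 6 had an unadjusted p under 0.05. The median log2 fold change of the 36 was -0.016 at 1 Hz and 0.036 at 4 Hz.

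The list of CLC chloride channels, chloride-proton exchangers, and their partners had 7 tested genes. Of these 4 were called at each of 1 and 4 Hz, 1 higher and 3 lower, and Clcn2, Clcn4, and Clcn5 were not. Clcn7, the chloride-proton exchanger of lysosomes, was lower at 1 Hz (-0.24 ± 0.07, adjusted p = 0.0077) and 4 Hz (-0.27 ± 0.07, adjusted p = 0.0022). Every library of Clcn7 at these frequencies was below every control, and how many of all genes tested did the same was not counted. Ostm1, the partner subunit of Clcn7, was lower by similar amounts (-0.30 and -0.33, adjusted p = 0.0095 and 0.0036). Clcn6, of late endosomes, was higher (0.39 and 0.44, adjusted p = 0.0051 and 0.0014), but on TPM only at 0.12 and 0.050 without a call. The third lower one, named after its values were seen, was Clcn3 (-0.35 at each). These counts stand against 19.2% of all genes tested higher and 18.1% lower at 1 Hz, and 27.5% and 23.9% at 4 Hz.

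Potassium-chloride cotransporters, which set the chloride gradient and cell volume, split by gene. Slc12a4 was higher at 4 Hz (0.23 ± 0.07, adjusted p = 0.0055), and on TPM it was at -0.091. Slc12a7 was lower at both frequencies (-0.33 and -0.30, adjusted p = 0.0043 and 0.0065).

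Among 8 tested anchors and regulators of channels 1 was called at each of 1 and 4 Hz, Sgk1. Of all genes tested, 19.2% were higher and 18.1% lower at 1 Hz, and 27.5% and 23.9% at 4 Hz. Sgk1 is a kinase induced by serum and glucocorticoids that raises the number of sodium pumps and channels at the membrane. It ran from 65.1 CPM through 110 to 133 in controls, from 75.3 through 181 to 230 at 1 Hz, and from 167 through 243 to 265 at 4 Hz. The log2 fold change was 0.72 ± 0.24 at 1 Hz (adjusted p = 0.021, lost in 8 of 36 settings) and 1.13 ± 0.24 at 4 Hz (adjusted p = 0.00049, kept in all 36). At 4 Hz all 6 libraries were above every control, which held for 12.9% of all genes tested.

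**Figure D5:**
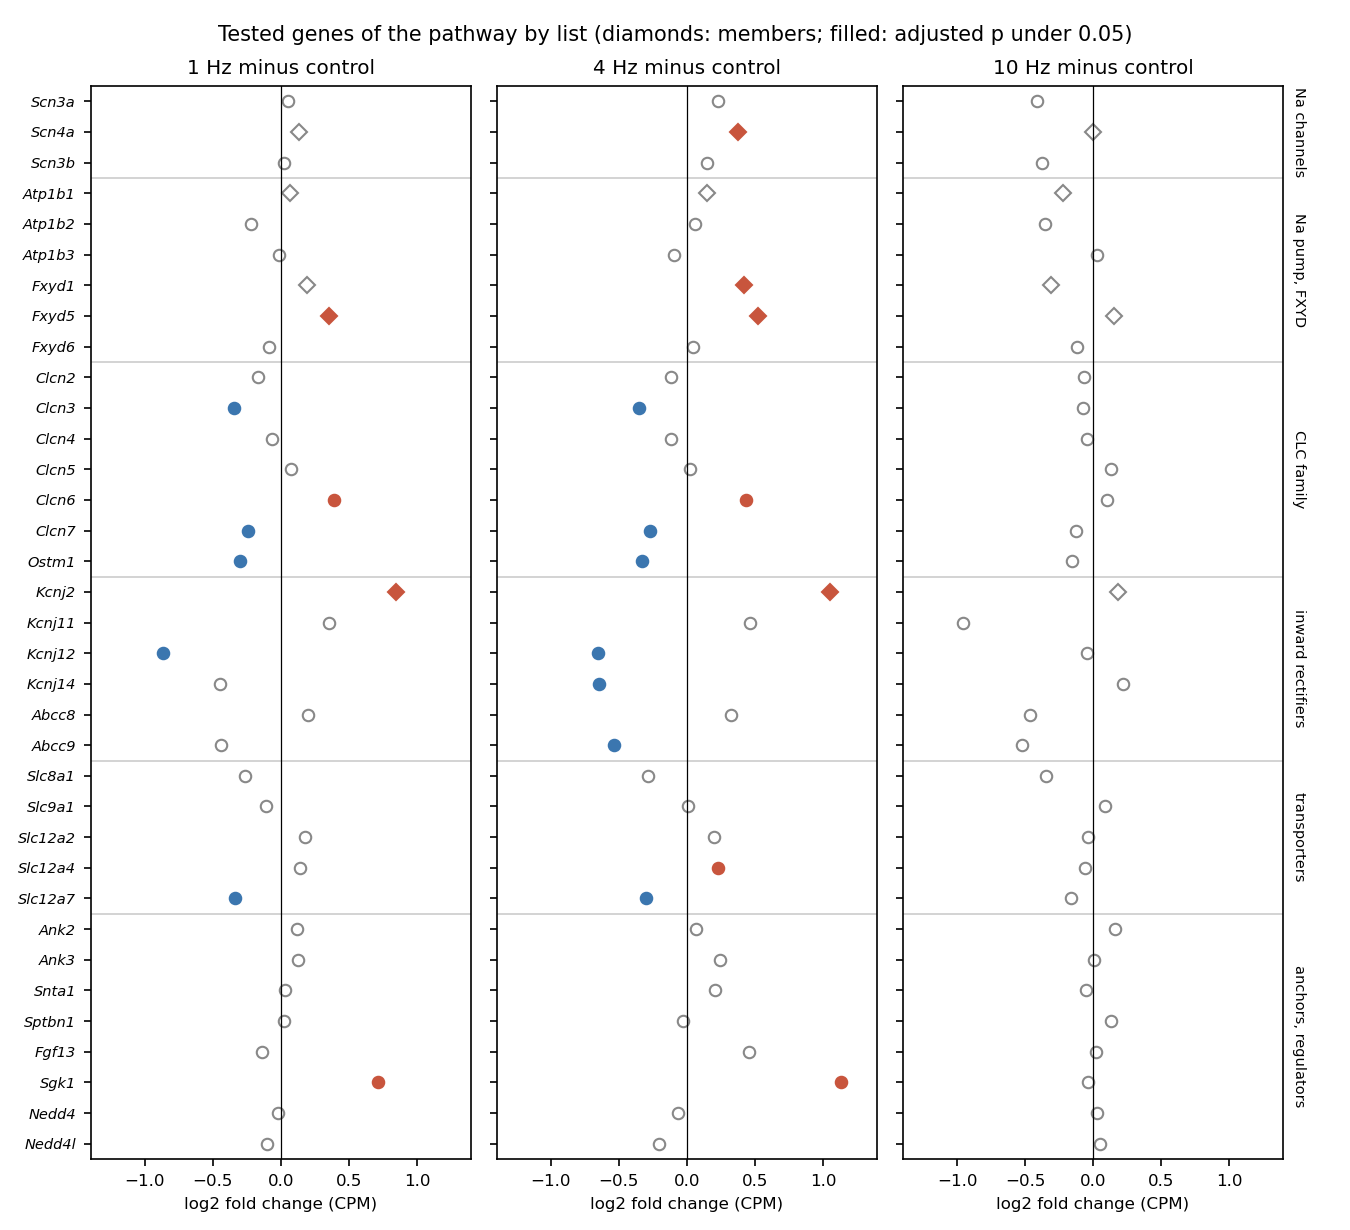
Log2 fold change from control in CPM (horizontal axis) of 35 of the 41 tested genes of the 6 lists at 1, 4, and 10 Hz, with diamonds for members and filled symbols for an adjusted p under 0.05, red where higher and blue where lower. At 4 Hz Kcnj2 (1.05) and Sgk1 (1.13) lie farthest to the right and Kcnj12 (-0.66) farthest to the left, and no symbol is filled at 10 Hz.

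Across the 24 libraries, the genes whose log2 CPM ran most like each member were found by Pearson r, as a description without a test. The libraries share their 4 conditions and their scaling, which alone can give high values. Atp1b1 ran most like Casq1, the calcium store protein calsequestrin (r = 0.927), Ckmt2, a mitochondrial creatine kinase (r = 0.923), and Myl1, a myosin light chain (r = 0.921). Fxyd1 ran most like Tpm1, a tropomyosin (r = 0.933), Ndrg2 (r = 0.923), and Tnnc2, the fast troponin C (r = 0.923).

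The other members ran with other genes. Fxyd5 was most like Vwa1 (r = 0.949) and the lysosomal proteases Ctsa (r = 0.947) and Ctsb (r = 0.928). Scn4a was most like Sgcd, a sarcoglycan of the dystrophin complex (r = 0.881), Eda2r (r = 0.86), and Fyco1 (r = 0.826). Kcnj2 was most like Ctnnal1 (r = 0.924), Mxd1 (r = 0.923), and Arid5b (r = 0.923). No gene was among the 3 closest of more than 1 member.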

How the data were processed

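RNA was sequenced by the authors from 24 libraries of the 60-min experiment, poly(A)-selected, or ribodepleted for low-input samples that the labels do not name. Reads were quantified by the authors with salmon inside nf-core/rnaseq, against GRCm39 and its Ensembl genes. The deposited estimated counts per gene come straight from salmon, with neither normalization nor filter. The TPM deposited by the authors divides by transcript length, and each library adds up to 1000000. BWA-MEM is also named, and strand use in counting is not given in the sources used here. Libraries were grouped by their titles.

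Estimated counts were rounded. Genes passing filterByExpr (minimum count 10, minimum total 15) were scaled by TMM and tested in edgeR 4.0.16 (R 4.3.3) by a robust quasi-likelihood F test, two-sided, in 1 fit over all libraries, called at an adjusted p under 0.05 over all genes tested. The biological coefficient of variation was 14.8%. Among the members, depth limits precision most for Clcn1 and Kcnj2. Kcnj12 and Kcnj14, with 681 and 374 estimated counts in total, had fewer than Kcnj2 with 1125. Methods were tested on simulated counts with few genes changed, evenly up and down, and without transcript lengths. The shift between TPM and CPM could not be tested there. Alternatives were DESeq2 1.42.0 (with apeglm 1.24.0), limma 3.58.1 on TPM for genes at 1 TPM in 6 libraries, other scaling, other filters, the replicate number as a block, a threshold on fold change, and leaving out each library. Leaving out the 4 libraries with a TMM factor under 0.95 was added after seeing the data. Named genes were the members, fixed partners, up to 2 genes per list and direction with the smallest p, and the 3 genes closest to each member by Pearson r. Members and lists were chosen with earlier results of these data known. Replicate numbers did not pair the libraries. Some genes that this rule names are not reported here, though counts over lists include them. The 30-min experiment was not analysed here.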

Additional observations from a re-analysis of the deposited data

Results flagged for a closer look

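In 64 groups of 6 libraries tested over the named genes, 2 held a library far from the other 5 by Dixon's ratio, while chance alone gives about 1 in 20. Kcnj2 in 10 Hz replicate 3 was at 5.89 CPM, with the others between 2.14 and 3.20. Clcn7 in 4 Hz replicate 6 was at 32.2 CPM, with the others between 26.3 and 28.0.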

How the results depend on the processing

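Of 1080 comparisons of a member's log2 fold change with an alternative, 977 kept direction and side of the threshold, 47 lost the call, 9 gained it, and 47 changed direction, and for the other named genes these were 1113, 24, 8, and 31 of 1176. The causes were not tested. Requiring an absolute log2 fold change over 0.5 as well left 1 member at 1 Hz, 2 at 4 Hz, and 2 at 10 against 4 Hz, and 3 and 4 other pathway genes at 1 and 4 Hz. On log2(TPM + 1), with or without a filter, and on log2(TPM + 0.1), 0 members were called at 1 Hz, 1 at 4 Hz, and 0 at 10 against 1 Hz. At 10 against 4 Hz 2 were called, or 1 with a pseudocount of 0.1, and TPM without a filter left 4 pathway genes at 1 Hz. With only the 2 groups compared, or only libraries with a TMM factor of at least 0.95, 1 member was called at 10 against 1 Hz and 1 pathway gene at 10 Hz against control. In CPM in place of TPM, the share of Atp1b1 was 38.38% in control and 34.74% at 10 Hz, and that of Fxyd5 63.61%, 69.23%, 68.99%, and 68.53% from control to 10 Hz.

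Directions that turned on TPM follow, with a pseudocount of 1 (with or without a filter) and then 0.1. Scn4a was at -0.288 and -0.325 (1 Hz), -0.0167 and -0.0229 (4 Hz), -0.157 and -0.184 (10 Hz), and 0.131 and 0.141 (10 against 1 Hz). Atp1b1 was at -0.139 and -0.142 (1 Hz) and -0.0565 and -0.0578 (4 Hz), Fxyd1 at -0.0246 and -0.0249 (1 Hz), and Fxyd5 at 0.0481 and 0.0483 (10 against 1 Hz). Among partners, Atp1b2 was at -0.237 and -0.28 (4 Hz), Fxyd6 at -0.269 and -0.282 (4 Hz), and Slc12a4 at -0.0626 and -0.0653 (1 Hz) and -0.0909 and -0.0945 (4 Hz).

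On counts, Scn4a at 10 Hz, near 0 throughout, turned to -0.00165 (RLE), -0.00519 (upper quartile), -0.00618 (no filter), -0.000714 (strict filter), -0.00136 (DESeq2), -0.000196 (apeglm), and -0.00622 (TMM factor of at least 0.95). Atp1b3 at 1 Hz turned to 0.00732 (upper quartile). With a TMM factor of at least 0.95, 1 Hz values turned to -0.168 for Atp1b1 and -0.0838 for Fxyd1.

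Leaving out each library gave 2 members at 1 Hz, 3 to 4 at 4 Hz, 1 to 4 at 10 against 1 Hz, and 3 to 5 at 10 against 4 Hz, and 7 to 9 and 11 to 15 pathway genes at 1 and 4 Hz. Log2 fold changes that crossed 0 ranged from -0.0517 to 0.0623 for Scn4a (10 Hz), -0.0437 to 0.278 for Kcnj2 (10 Hz), -0.0561 to 0.146 (1 Hz) and -0.0198 to 0.173 (4 against 1 Hz) for Atp1b1, -0.0204 to 0.123 for Atp1b2 (4 Hz), and -0.0637 to 0.0365 (1 Hz) and -0.0025 to 0.0794 (10 Hz) for Atp1b3. The same held from -0.153 to 0.0302 for Kcnj12 (10 Hz), -0.0163 to 0.0844 for Fxyd6 (4 Hz), and -0.181 to 0.0664 for Sgk1 (10 Hz).

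With the replicate number as a block, 2 members were called at 1 Hz, 4 at 4 Hz, 0 at 10 Hz, 0 at 4 against 1 Hz, 2 at 10 against 1 Hz, and 5 at 10 against 4 Hz, and 7, 12, and 0 pathway genes at 1, 4, and 10 Hz. Same-numbered libraries correlated above 0.1 in 3 of 36 pairs, and 0 of 24 libraries correlated best with their own number. No pairing by number was seen, but such correlations cannot show that a weak pairing is absent.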
